A study of Mus musculus with 27 samples.

Results

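The DNA methylation machinery of mouse cells was followed here through 8 genes: the maintenance methyltransferase gene Dnmt1 and its recruitment factor gene Uhrf1, the de novo methyltransferase genes Dnmt3a and Dnmt3b with the cofactor gene Dnmt3l, and the dioxygenase genes Tet1, Tet2 and Tet3. They were chosen by name, and all 8 were found by Ensembl identifier among the 37332 genes of a table of read counts and among the 53379 genes of a table of transcripts-per-million values (TPM). The study separated 3 cell types into cytoplasm, nucleoplasm and chromatin and sequenced the polyadenylated RNA longer than 200 nt of each fraction, with 3 biological replicates in each of the 9 groups and 27 libraries in all. The mESC group is the embryonic stem cell line E14, grown with LIF. The mNPC group is a neuronal progenitor line that the laboratory established, with a daily addition of EGF and FGF (10 ng/ml). The mCtx group is a primary culture of cortical neurons kept for 5 days, with E15D5 in its sample labels. The mESC and mNPC groups are 1 line each, and the labels give no further genotype, age or treatment. The 3 cell types are separate cultures and not a time course of 1 culture.

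DNA methylation in mammals is laid down by DNMT3A and DNMT3B, which the catalytically inactive DNMT3L stimulates, and is copied after replication by DNMT1, which UHRF1 brings to hemimethylated CpG sites. The TET proteins oxidise 5-methylcytosine, a first step towards its removal. As background, mouse embryonic stem cells are known for Tet1, Tet2 and Dnmt3l, and neurons for Tet3, Dnmt3a and high levels of hydroxymethylcytosine.

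The libraries held between 10622897 and 24537526 counts. Levels within a gene are given as counts-per-million (CPM) after TMM scaling, and levels between genes as TPM, which is per transcript length. The cytoplasmic libraries fitted their labels: the summed level of 10 pluripotency markers was 5675 to 6381 CPM in mESC, 14.0 to 17.2 CPM in mNPC and 7.1 to 7.5 CPM in mCtx, with Zfp42 at 0 in mNPC and mCtx cytoplasm. Of the highest markers, Dppa5a averaged 1394 CPM in mESC cytoplasm, Vim and Fabp7 averaged 2985 and 2015 CPM in mNPC cytoplasm, and Tubb3 and Mapt averaged 2644 and 2655 CPM in mCtx cytoplasm. Progenitor markers summed to 7547 to 7753 CPM in mNPC cytoplasm, and neuron markers to 8772 to 9839 CPM in mCtx cytoplasm. The mNPC libraries also held 6 astrocyte markers, among them Slc1a3 and Aldoc, at 1660 to 2042 CPM in cytoplasm, 4061 to 4977 CPM in nucleoplasm and 1163 to 1477 CPM in chromatin. In the same libraries 6 oligodendrocyte lineage markers summed to 116 to 183 CPM in cytoplasm, 1693 to 2041 CPM in nucleoplasm and 399 to 428 CPM in chromatin. Most of the nucleoplasmic sum came from Cspg4 and Pdgfra, which averaged 1033 and 715 CPM there, while Mog was at 0 in all 3 mNPC fractions. The mCtx cytoplasm held 1340 to 1781 CPM of progenitor markers and 426 to 461 CPM of astrocyte markers. Microglia markers summed to at most 106 CPM in any library, a maximum reached in mESC cytoplasm, and to 59.5 to 68.9 CPM in mCtx cytoplasm. Cx3cr1 alone averaged 84.1 CPM in mESC, 30.2 in mNPC and 48.3 in mCtx cytoplasm. Trem2 went the other way, with 0.0679, 0 and 4.94 CPM, and none of the 8 markers was at 0 in mCtx cytoplasm. Markers of endothelium and fibroblasts, such as Pecam1 and Col1a1, summed to 28.3 to 41.8 CPM in mESC cytoplasm and to 224 to 559 CPM in mESC nucleoplasm. They summed to at most 7.8 CPM in the cytoplasm of the other cell types. Most of the mESC sums was Pecam1, at 33.4 CPM on average in cytoplasm and 334 in nucleoplasm, against 0.893 and 15.6 for Col1a1. Primitive endoderm markers, such as Dab2 and Gata4, summed to 18.8 to 32.1 CPM in mESC cytoplasm and to at most 4.9 CPM in that of the other cell types. In all 3 cell types the nuclear RNAs Malat1 and Neat1 were higher in chromatin than in cytoplasm and Rpsa, Rpl32, Actb and Gapdh lower, although the Malat1 difference on the log2 scale was 6.24 in mESC, 6.13 in mNPC and 2.17 in mCtx. The mESC libraries of replicate 1 stood apart from replicates 2 and 3 for the genes described here. In each of the 3 fractions they lay below both other replicates for Dnmt1, Dnmt3a, Dnmt3b, Uhrf1 and Tet1 and above both for Tet3, and Dnmt3b was at 0.407, 0.402 and 0.462 times the mean of the other replicates in cytoplasm, nucleoplasm and chromatin.

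On build mm10 the members lie at chr9:20907206-20959888 (Dnmt1, minus strand), chr17:56303321-56323486 (Uhrf1, plus), chr12:3806007-3914443 (Dnmt3a, plus), chr2:153649450-153687730 (Dnmt3b, plus), chr10:78041947-78063622 (Dnmt3l, plus), chr10:62804570-62899118 (Tet1, minus), chr3:133463679-133544390 (Tet2, minus) and chr6:83362373-83441678 (Tet3, minus). In cytoplasm the ends of the range between cell types were Dnmt3l and Dnmt3b on the mESC side and Tet3 on the other, and the DNA just upstream of an annotated start of each is shown to give their CpG content. The sequences are from RefSeq on build GRCm38.p6, 250 bases on the strand of the gene, with every CpG in capitals. Which start the cells used is not given in the sources used here, and Dnmt3l has 3 such starts, of which the middle one is shown.
Dnmt3l, chr10:78049592-78049841, plus strand: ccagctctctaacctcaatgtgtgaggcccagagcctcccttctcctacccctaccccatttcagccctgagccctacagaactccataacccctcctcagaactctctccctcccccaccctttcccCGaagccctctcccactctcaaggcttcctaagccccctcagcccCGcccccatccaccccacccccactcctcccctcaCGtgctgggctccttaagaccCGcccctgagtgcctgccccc
Dnmt3b, chr2:153649199-153649448, plus strand: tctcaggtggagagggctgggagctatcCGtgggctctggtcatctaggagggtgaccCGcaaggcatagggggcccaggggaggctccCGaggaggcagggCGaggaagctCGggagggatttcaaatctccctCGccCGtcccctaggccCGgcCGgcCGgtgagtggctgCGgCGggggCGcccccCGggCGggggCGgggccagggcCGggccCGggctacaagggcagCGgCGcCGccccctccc
Tet3, chr6:83441679-83441928, minus strand: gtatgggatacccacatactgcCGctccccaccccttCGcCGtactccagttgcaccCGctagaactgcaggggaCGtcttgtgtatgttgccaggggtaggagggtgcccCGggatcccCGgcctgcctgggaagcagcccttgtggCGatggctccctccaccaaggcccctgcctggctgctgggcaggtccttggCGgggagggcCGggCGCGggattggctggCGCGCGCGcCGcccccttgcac
The Dnmt3l window held 4 CpG dinucleotides, the Dnmt3b window 21 and the Tet3 window 17, against a median of 6 over 32851 such windows of all genes. Of those windows 62.2%, 16.3% and 23.5% held as many or more. The windows of the other members ranged from 2 CpG at 1 of the 3 starts of Dnmt1 to 51 at Tet2.

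Dnmt1 and Uhrf1, the maintenance genes, were highest in mESC cytoplasm. Dnmt1 stood at 461, 576 and 598 CPM in the 3 mESC cytoplasm libraries, at 134, 138 and 85.3 CPM in mNPC and at 68.0, 83.6 and 89.1 CPM in mCtx. Every mESC library was above every library of the other cell types, while mNPC and mCtx overlapped. Uhrf1 stood at 475, 752 and 851 CPM in mESC cytoplasm, at 135, 144 and 128 CPM in mNPC and at 40.3, 46.3 and 41.1 CPM in mCtx, so that the 3 cell types formed separate steps. In bulk RNA, fewer cells that express a gene and less RNA per cell cannot be told apart.

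Of the cytoplasmic differences, Dnmt1 was lower in mNPC than in mESC with a log2 fold change of -2.19 ± 0.176 (SE, adjusted p = 1.36e-11 in edgeR's quasi-likelihood test) and in mCtx than in mESC at -2.76 ± 0.181 (adjusted p = 1.22e-13). The step from mNPC to mCtx was -0.57 ± 0.171 and was not called, a call being an adjusted p under 0.05 with a log2 change of at least 1. Uhrf1 was lower at both steps, at -2.35 ± 0.203 from mESC to mNPC and at -1.67 ± 0.201 from mNPC to mCtx (adjusted p = 5.32e-11 and 4.11e-08). A list of 15 cell cycle genes was lower in sum at both steps: it summed to 6155 to 8393 CPM in mESC cytoplasm, 2541 to 3019 CPM in mNPC and 765 to 867 CPM in mCtx. Its genes did not all move together. From mESC to mNPC, Top2a averaged 1274 and 390 CPM in cytoplasm. Mki67 went the other way, with averages of 47.7 and 65.7 CPM in cytoplasm, 416 and 901 CPM in nucleoplasm and 415 and 883 CPM in chromatin. Of the 15, 12 were lower and none higher in mCtx than in mNPC cytoplasm, where 20% of all genes were lower and 24.4% higher. At that step Top2a was at -3.31 ± 0.177 and Mki67 at -2.44 ± 0.193 on the log2 scale. The part of cell division, and of the progenitor markers in the mCtx culture, in the Uhrf1 and Dnmt1 differences was not tested.

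In the nuclear fractions Dnmt1 differed less. In nucleoplasm it averaged 246 ± 50.4 CPM (SD, n = 3) in mESC, 160 ± 12.6 in mNPC and 215 ± 17.5 in mCtx, and no pair was called. In chromatin it averaged 305 ± 45.7, 150 ± 11.3 and 193 ± 7.27 CPM, and the mNPC level was called lower than that of mESC at -1.03 ± 0.171 (adjusted p = 5.69e-06). That call was lost without mESC chromatin 3 (-0.93) or without mNPC chromatin 1 (-0.975). Uhrf1 kept its order in chromatin, with 295 ± 63.8 CPM in mESC, 106 ± 14.2 in mNPC and 45.7 ± 2.63 in mCtx, and all 3 pairs were called. In nucleoplasm it averaged 292 ± 84.5, 80.6 ± 7.18 and 51.2 ± 2.25 CPM, and the pair of mCtx and mNPC at -0.65 ± 0.198 was not called.

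**Figure D1:**
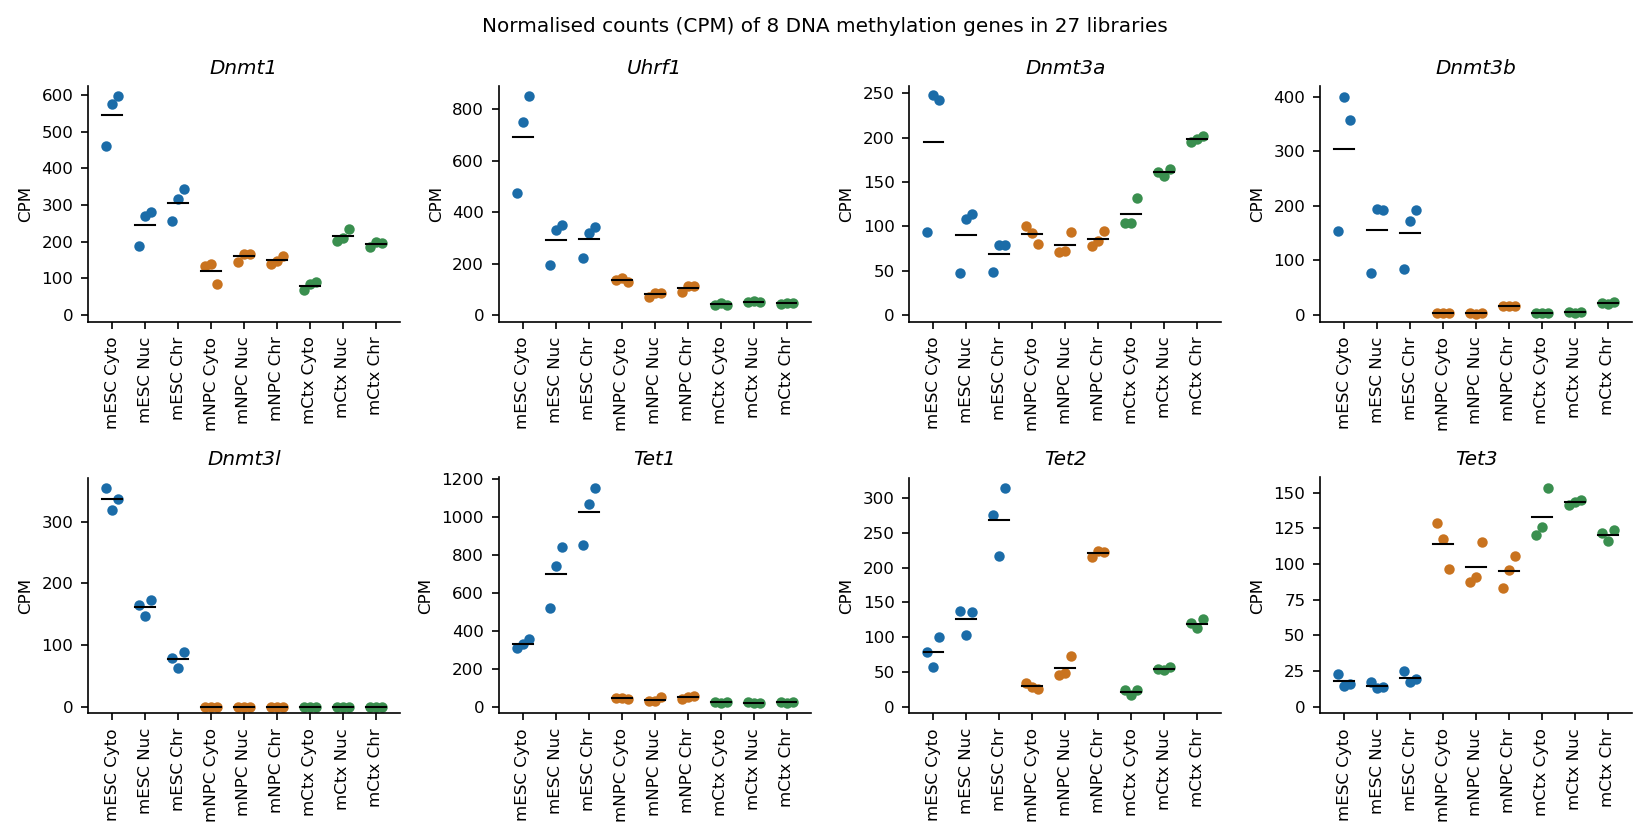
TMM-scaled CPM on linear axes for each of the 8 genes, with 1 point per library (3 per group) and a line at the group mean. Dnmt3l was at 0 outside mESC, Tet3 was low in mESC alone among the cell types, and Tet2 was highest in the chromatin of each cell type.

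Dnmt3b and Dnmt3l showed the widest gaps between mESC and the neural cell types in cytoplasm. Dnmt3b stood at 154, 399 and 357 CPM in mESC cytoplasm, at 3.44, 3.91 and 3.43 CPM in mNPC and at 3.07, 4.23 and 3.47 CPM in mCtx. The neural cultures overlapped each other and lay far below mESC. The log2 fold change was -6.40 ± 0.389 for mNPC and -6.39 ± 0.388 for mCtx against mESC (adjusted p = 4.36e-14 and 2.63e-14), and 0.0050 ± 0.381 between mCtx and mNPC. In chromatin the gap was narrower: Dnmt3b stood at 84.4, 173 and 192 CPM in mESC, at 16.3, 16.8 and 16.7 CPM in mNPC and at 22.6, 20.7 and 23.2 CPM in mCtx, and the log2 fold changes against mESC were -3.17 ± 0.327 and -2.76 ± 0.319.

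Dnmt3l was counted in mESC only. It stood at 354, 319 and 337 CPM in mESC cytoplasm, at 166, 147 and 173 CPM in nucleoplasm and at 79.4, 62.5 and 88.3 CPM in chromatin. All 18 libraries of mNPC and mCtx held 0 counts, and in TPM 1 mCtx chromatin library held 0.19 and the other 17 were listed at 0. Set against a floor of 3 counts over the 3 libraries of a group, Dnmt3l was at least 6154-fold lower in mNPC and at least 6338-fold lower in mCtx cytoplasm, at least 1763-fold and 2632-fold lower in nucleoplasm, and at least 1434-fold and 1533-fold lower in chromatin. These floors cover counting error only. Aire, on the opposite strand, overlaps the first 1664 bases of Dnmt3l and held 7279 counts in mESC and 16 elsewhere, against 30284 counts of Dnmt3l. Whether the counting used strand is not given in the sources used here, so reads in that overlap cannot be assigned with certainty.

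Dnmt3a took a different course. In mESC cytoplasm it stood at 93.8, 248 and 243 CPM, in mNPC at 101.1, 92.4 and 80.0 CPM and in mCtx at 104, 104 and 133 CPM, and the low mESC library of replicate 1 lay within the range of the neural cultures. In chromatin the mESC libraries, at 48.8, 79.4 and 78.9 CPM, and the mNPC libraries, at 77.8, 84.1 and 95.1 CPM, lay below the mCtx libraries at 195, 199 and 202 CPM. The cytoplasmic change from mESC to mNPC was -1.10 ± 0.275 (adjusted p = 0.000798), while in chromatin Dnmt3a rose from mNPC to mCtx by 1.21 ± 0.275 and from mESC to mCtx by 1.52 ± 0.277 (adjusted p = 0.000362 and 1.82e-05). Dnmt3a was called higher in mCtx than in mNPC nucleoplasm too, at 1.03 ± 0.276 (adjusted p = 0.00183).

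Several Dnmt3a calls lay close to the fold threshold. The cytoplasmic call against mESC was lost without mESC cytoplasm 2 (-0.925) or 3 (-0.97). The nucleoplasmic call was lost in the absence of any 1 of 11 libraries (mCtx cytoplasm 2, mCtx nucleoplasm 1, 2 or 3, mESC cytoplasm 1, 2 or 3, mESC nucleoplasm 1 and mNPC nucleoplasm 1, 2 or 3), with values of 0.80 to 0.99, and with RLE scaling or DESeq2 (0.956). Without mESC cytoplasm 1 the cytoplasmic difference of mCtx and mESC, -0.78 ± 0.273, was called at -1.12, and without mESC nucleoplasm 3 the nucleoplasmic one, 0.84 ± 0.274, was called at 1.05.

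Tet1 and Tet3 moved in opposite directions between the cell types. Tet1 stood at 307, 328 and 356 CPM in mESC cytoplasm, at 43.3, 47.4 and 38.5 CPM in mNPC and at 22.7, 17.0 and 25.6 CPM in mCtx. Tet3 stood at 22.6, 14.7 and 15.7 CPM in mESC cytoplasm, at 129, 117 and 96.4 CPM in mNPC and at 120, 126 and 154 CPM in mCtx. No mESC library overlapped a neural library for either gene, and the neural cultures overlapped each other for Tet3 only. In cytoplasm the log2 fold change of Tet1 was -2.94 ± 0.214 from mESC to mNPC and -3.92 ± 0.225 from mESC to mCtx, whereas Tet3 rose by 2.70 ± 0.177 and 2.92 ± 0.178 (adjusted p between 7.83e-15 and 1.83e-12 in these 4 tests). The same directions were called in nucleoplasm and chromatin. Tet1 reached 851, 1068 and 1150 CPM in mESC chromatin against 23.3, 20.3 and 21.9 CPM in that of mCtx, a log2 fold change of -5.55 ± 0.242. Between mCtx and mNPC, Tet1 was called lower in chromatin at -1.16 ± 0.206 (adjusted p = 1.93e-05), while its cytoplasmic value of -0.98 ± 0.207 was not called, though it passed with library totals (-1.10), with only the groups compared (-1.01) and without mCtx cytoplasm 1, mCtx cytoplasm 3 or mNPC cytoplasm 3 (-1.01, -1.12 and -1.05). Its nucleoplasmic value of -0.79 ± 0.21 passed without mNPC nucleoplasm 1 or 2 (-1.12 and -1.05).

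Tet2 was shared more evenly. In cytoplasm it stood at 79.0, 57.5 and 100 CPM in mESC, at 34.6, 28.4 and 25.6 CPM in mNPC and at 23.6, 16.5 and 24.53 CPM in mCtx, with log2 fold changes against mESC of -1.41 ± 0.196 and -1.87 ± 0.2 (adjusted p = 3.43e-07 and 2.44e-09). In chromatin the mESC libraries, at 276, 217 and 315 CPM, overlapped the mNPC libraries at 215, 224 and 223 CPM, and the difference of -0.29 ± 0.189 was not called. The mCtx chromatin libraries were lower, at 120, 112 and 125 CPM, a log2 fold change of -1.17 ± 0.191 against mESC. The nucleoplasmic call of mNPC against mESC, -1.19 ± 0.195, was lost without mESC nucleoplasm 1, mNPC nucleoplasm 1 or mNPC nucleoplasm 2 (-0.949, -0.917 and -0.954).

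Counted together, all 8 members differed between mNPC and mESC cytoplasm, 7 lower and Tet3 higher, where 29.6% of the 18226 genes tested were called lower and 29.8% higher. Between mCtx and mESC cytoplasm 6 were lower and Tet3 higher, against 32.2% and 35.7% of all genes. Between mCtx and mNPC cytoplasm the only called member of 7 was Uhrf1, lower, against 20% lower and 24.4% higher. In nucleoplasm 6 of 8 members differed between mNPC and mESC (57.4% of genes), 1 of 7 between mCtx and mNPC (46.7%) and 6 of 8 between mCtx and mESC (63%). In chromatin these counts were 6 of 8 (57.2%), 3 of 7 (44.8%) and 7 of 8 (61.5%). Dnmt3l is counted in the pairs with mESC and has no value between mCtx and mNPC. With 0 counts in every mNPC and mCtx library, Dnmt3l passed the filter on low counts through mESC alone. Its call in each pair with mESC, in every fraction, was therefore fixed in advance. The comparisons that involve mESC share the mESC libraries.

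**Figure D2:**
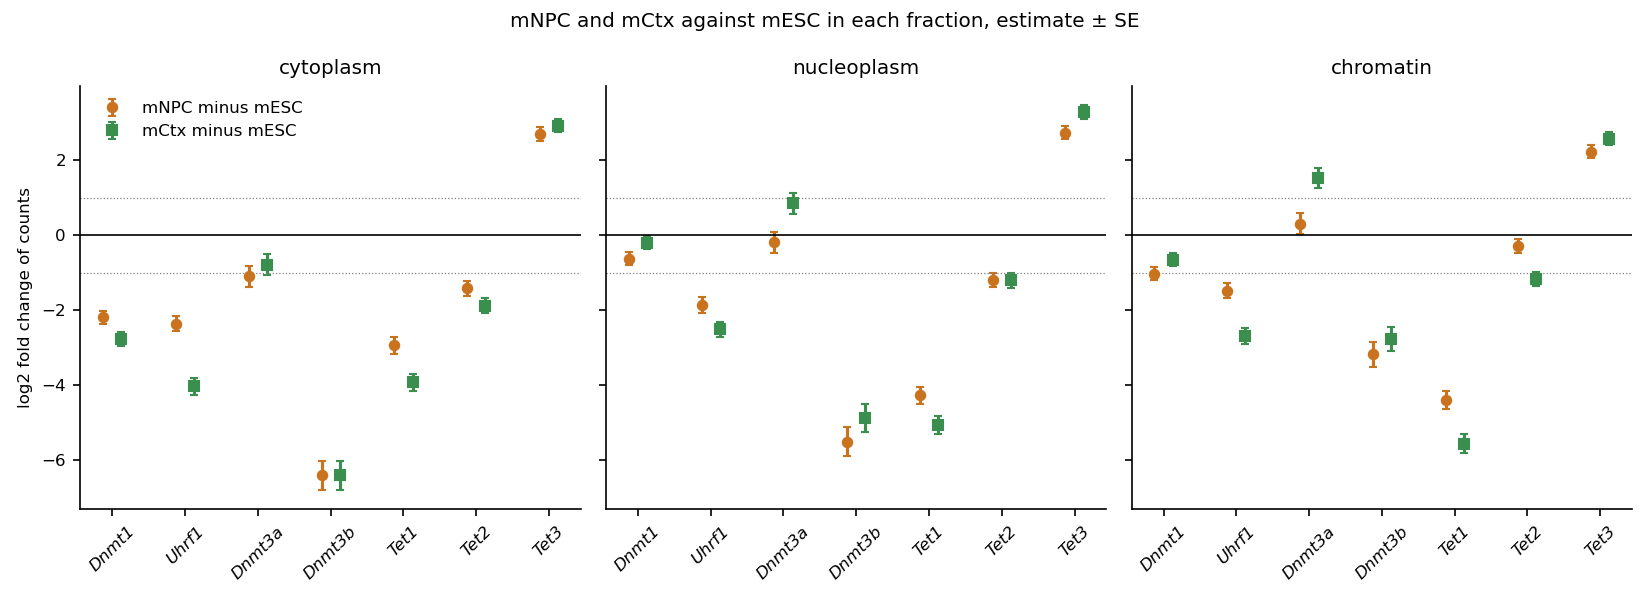
Log2 fold change of counts ± SE of mNPC (circles) and mCtx (squares) against mESC in cytoplasm, nucleoplasm and chromatin for 7 genes. Dotted lines mark a log2 change of 1, and Dnmt3l, which had no count outside mESC, is not drawn; Dnmt3b lay at -6.40 and -6.39 in cytoplasm and at -3.17 and -2.76 in chromatin.

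The TPM table put the genes on 1 scale. In mESC cytoplasm the order was Dnmt3l (263 ± 34.9 TPM, SD, n = 3), Uhrf1 (237 ± 51.8), Dnmt1 (124 ± 6.33), Dnmt3b (96.1 ± 36.9), Dnmt3a (73.5 ± 36.4), Tet1 (56.0 ± 2.80), Tet2 (11.4 ± 2.88) and Tet3 (2.19 ± 0.618). The libraries of Dnmt3l and Uhrf1 overlapped, as did each neighbouring pair from Dnmt1 to Tet1, while Tet2 and Tet3 stood apart. In mCtx cytoplasm Dnmt1 (18.9 ± 2.01 TPM), Dnmt3a (16.7 ± 1.18), Tet3 (16.0 ± 3.19) and Uhrf1 (15.6 ± 0.739) led with overlapping libraries, above Tet2 (4.58 ± 1.04), Tet1 (2.51 ± 1.25) and Dnmt3b (1.41 ± 0.528).

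The make-up of the TET family turned over with cell type and fraction. Tet1 made up 80.7 ± 3.03% of the summed TET TPM in mESC cytoplasm, 27.6 ± 3.29% in mNPC and 10.4 ± 2.94% in mCtx. Tet3 made up 3.13 ± 0.73%, 53.6 ± 2.63% and 69.5 ± 4.16% of the same sums. In chromatin Tet2 took the largest share of both neural cultures, 73.9 ± 3.43% in mNPC and 64.3 ± 0.851% in mCtx, while Tet1 took 67.6 ± 3.48% in mESC. Of the catalytic DNMT genes, Dnmt3b gave 32.0 ± 4.54% of the summed TPM in mESC cytoplasm and 2.78 ± 0.233% and 3.88 ± 1.66% in mNPC and mCtx. Its share in chromatin was 33.1 ± 4.85%, 12.2 ± 1.28% and 6.07 ± 0.125%. The summed TET level in cytoplasm was 69.6 ± 5.77 TPM in mESC, 26.2 ± 3.94 in mNPC and 23.1 ± 4.91 in mCtx, and that of the catalytic DNMT genes 294 ± 79.1, 45.5 ± 10.4 and 37.0 ± 2.81 TPM.

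**Figure D3:**
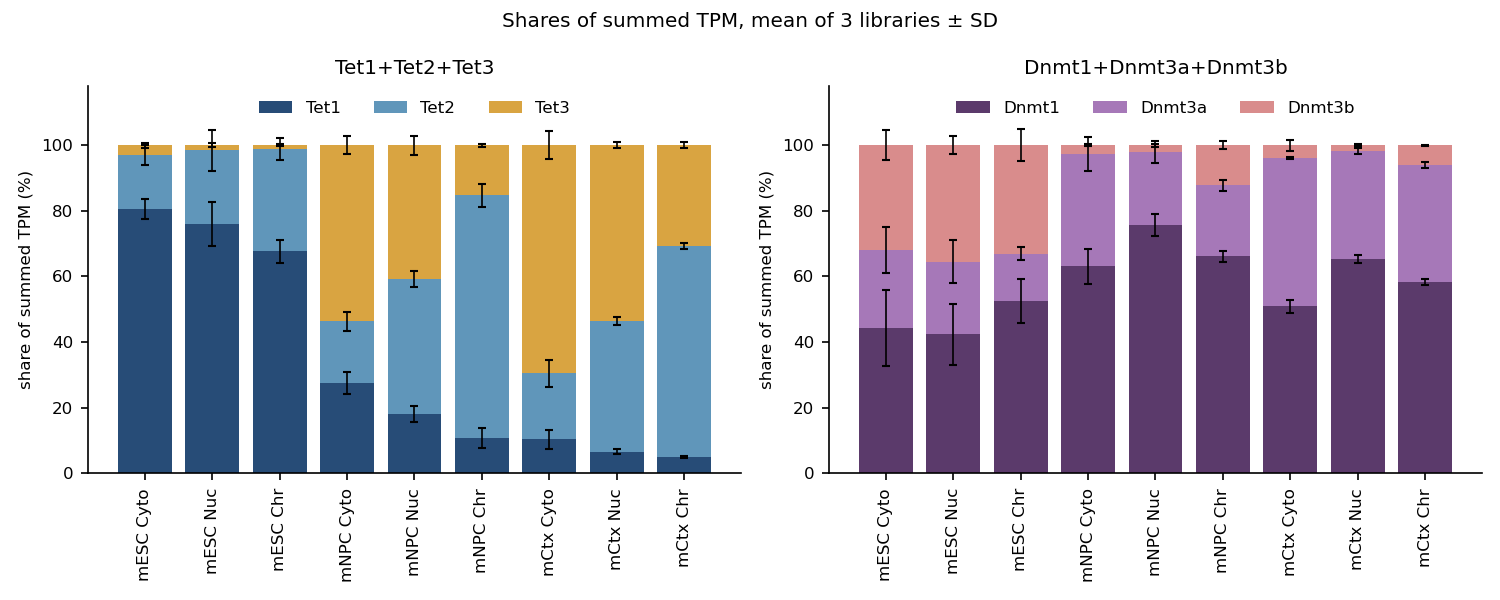
Share of each gene in the summed TPM of Tet1, Tet2 and Tet3 (left) and of Dnmt1, Dnmt3a and Dnmt3b (right) in each group, as the mean of 3 libraries, with the SD of a share drawn at the top of its segment. Tet1 filled 80.7% of the TET sum in mESC cytoplasm and Tet3 69.5% in mCtx cytoplasm.

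Within a cell type, the fractions separated the members into those lower in chromatin than in cytoplasm and those higher. The labels give no purpose for this comparison beyond the series title, which speaks of RNA maturation in neuronal differentiation. Changes between fractions are relative to the library, since the amount of RNA per fraction is not given. In mESC 4 members were lower in chromatin, namely Dnmt3l at -2.13 ± 0.151 on the log2 scale, Dnmt3a at -1.50 ± 0.277, Uhrf1 at -1.23 ± 0.196 and Dnmt3b at -1.02 ± 0.298 (adjusted p = 6.38e-09, 2.73e-05, 3.32e-06 and 0.00341). Tet1 and Tet2 were higher in chromatin, at 1.63 ± 0.203 and 1.77 ± 0.195 (adjusted p = 6.41e-08 and 7.98e-09). Of all genes 21.6% were called lower and 34.4% higher. The median over the 8 members was -0.93 and over all genes 0.37. With the libraries scaled by their totals alone the calls of Dnmt3a (-0.95), Uhrf1 (-0.70) and Dnmt3b (-0.49) were lost, and the median of all genes was 0.88. Dnmt3b was lower in chromatin in each of the 3 same-numbered mESC pairs (154 and 84.4, 399 and 173, 357 and 192 CPM), although the groups overlapped. Its call was lost also without mESC chromatin 1 (-0.73), mESC cytoplasm 2 (-0.79) or mESC cytoplasm 3 (-0.92). On the fold alone it was lost in edgeR with the replicates of each cell type as blocks (-0.99, adjusted p = 2.98e-09).

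In the neural cultures Tet2 and Dnmt3b were higher in chromatin, and no member was called lower. Tet2 stood at 34.6, 28.4 and 25.6 CPM in mNPC cytoplasm and at 215, 224 and 223 CPM in mNPC chromatin, and at 23.6, 16.5 and 24.53 CPM against 120, 112 and 125 CPM in mCtx, without overlap. The log2 differences were 2.90 ± 0.205 in mNPC and 2.47 ± 0.203 in mCtx (adjusted p = 1.7e-12 and 3.32e-11). Dnmt3b differed by 2.20 ± 0.353 and 2.62 ± 0.351 (adjusted p = 3.92e-06 and 2.39e-07), on 197 and 205 counts over the 3 cytoplasmic libraries of mNPC and mCtx. Dnmt1 was called in mCtx at 1.27 ± 0.172 (adjusted p = 2.98e-07) and was at 0.33 ± 0.17 in mNPC. Thus 2 of 7 members were higher in mNPC, where 27.5% of all genes were higher and 21.3% lower, and 3 of 7 in mCtx, where 26.2% were higher and 24.4% lower. Tet3 passed in none of the 3 cell types, with values of 0.20 ± 0.171, -0.27 ± 0.163 and -0.14 ± 0.162.

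In mESC, 5 of 8 members differed between nucleoplasm and cytoplasm, against 36.5% of genes: Dnmt1, Dnmt3a, Dnmt3l and Uhrf1 were lower, at -1.06 to -1.25 on the log2 scale, and Tet1 was higher at 1.09 ± 0.2. Of these, Dnmt3a was no longer called without mESC nucleoplasm 1 (-0.89) or mESC cytoplasm 2 (-0.97), Dnmt3l without mESC nucleoplasm 2 (-0.996) and Tet1 without mESC cytoplasm 2 (0.99) or mESC nucleoplasm 3 (0.93). Dnmt3b, at -0.97 ± 0.297 with an adjusted p of 0.00633, missed the fold threshold in mESC and passed it with RLE scaling, DESeq2, other filters and several left-out libraries (-1.01 to -1.33). With only the groups compared, Dnmt3a (-0.98, adjusted p = 0.0729) and Dnmt3l (-0.94) were not called. In mNPC edgeR called 0 of 7 (25% of genes), with an unadjusted p under 0.05 in 3. These 3, Uhrf1 at -0.75 ± 0.197, Tet2 at 0.89 ± 0.196 and Dnmt1 at 0.42 ± 0.17, also had an adjusted p under 0.05 (0.00228, 0.000429 and 0.0429) and missed the fold threshold. Tet2 passed it with DESeq2 and RLE scaling (both 1.03), at 1 CPM (1.04), with only the groups compared (1.01) and without some libraries of each cell type (1.02 to 1.26), and Uhrf1 with library totals (-1.02). In mCtx 2 of 7 were called (21.3% of genes), Dnmt1 at 1.42 ± 0.173 and Tet2 at 1.34 ± 0.198.

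Between chromatin and nucleoplasm 2 members passed in each cell type, against 33.4% of genes in mESC, 44.4% in mNPC and 33.4% in mCtx. Tet2 was higher in chromatin in all 3, at 1.10 ± 0.191, 2.01 ± 0.198 and 1.13 ± 0.193. Dnmt3b was higher in chromatin in mNPC and mCtx, at 2.27 ± 0.376 and 2.06 ± 0.341, and Dnmt3l was lower in mESC chromatin at -1.08 ± 0.147. The mESC calls were lost for Tet2 without mESC nucleoplasm 2 (0.97) or mESC chromatin 3 (0.96) and for Dnmt3l without mESC nucleoplasm 1 (-0.99) or mESC chromatin 2 (-0.94).

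**Figure D4:**
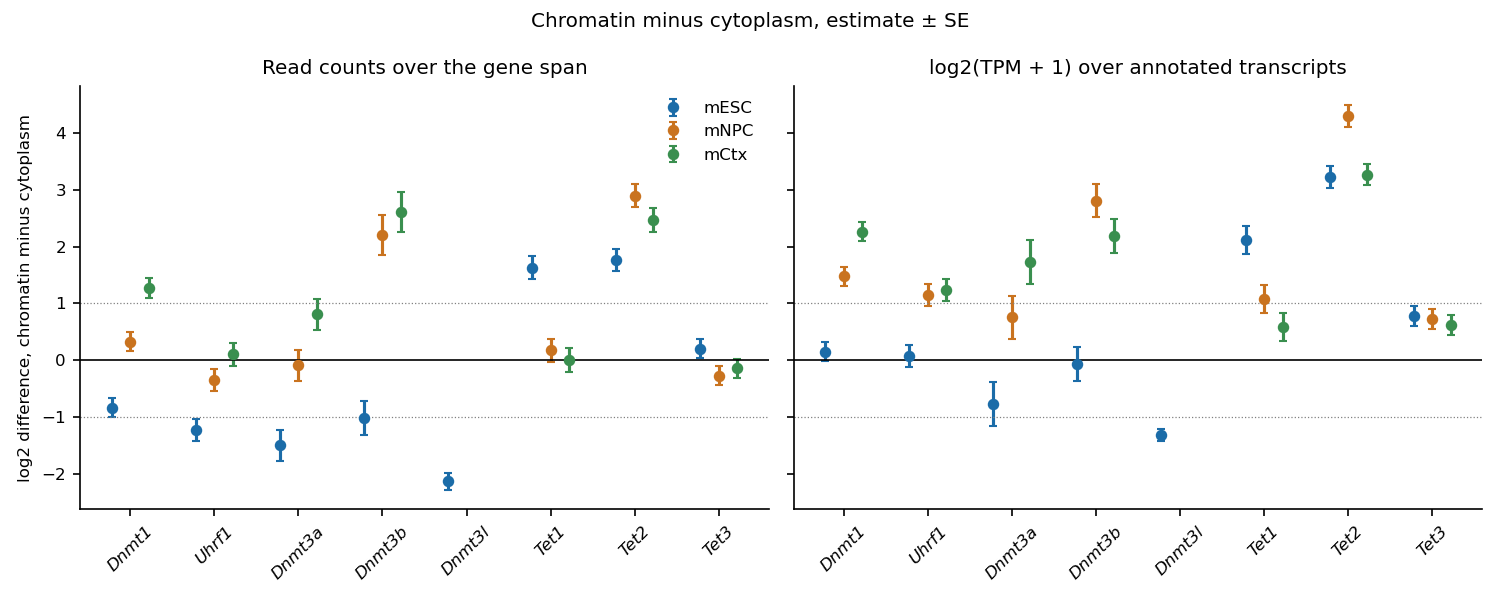
Chromatin minus cytoplasm on the log2 scale ± SE for each gene and cell type, from counts over the gene span (left) and from log2(TPM + 1) over annotated transcripts (right). Dotted lines mark 1 and -1; Dnmt3l is drawn for mESC only. In counts Dnmt3b lay at -1.02 in mESC and at 2.20 and 2.62 in mNPC and mCtx, and Tet1 at 1.63 in mESC and at 0.18 and 0.0035.

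The chromatin-minus-cytoplasm difference itself was compared between cell types in the same fit, as a difference of differences. From mESC to mNPC 5 of 7 members passed, against 28% of genes. Dnmt3b shifted towards chromatin by 3.22 ± 0.462 on the log2 scale, Dnmt3a by 1.41 ± 0.387, Dnmt1 by 1.16 ± 0.24 and Tet2 by 1.13 ± 0.271, while Tet1 shifted towards cytoplasm by -1.45 ± 0.284 (adjusted p = 3.08e-06, 0.00453, 0.000302, 0.00142 and 0.000166). From mESC to mCtx 5 of 7 passed, against 40.6% of genes: Dnmt3b at 3.63 ± 0.46, Dnmt3a at 2.31 ± 0.389, Dnmt1 at 2.11 ± 0.242, Uhrf1 at 1.33 ± 0.277 and Tet1 at -1.63 ± 0.288 (adjusted p between 4.8e-08 and 0.00021). The medians over the 7 members were 1.13 and 1.33 and over all genes -0.19 and -0.30. Between mNPC and mCtx edgeR and DESeq2 called 0 of 7 (19% of genes), with Dnmt3a and Dnmt1 at an unadjusted p under 0.05 and Dnmt1 at 0.94 ± 0.241. Malat1 differed between cytoplasm and chromatin less in mCtx than in mESC, as given above, and its part in the mCtx shifts was not tested.

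Of these shifts, that of Dnmt1 in mNPC was lost without mNPC cytoplasm 3 (0.98), and that of Tet2 without mESC chromatin 2, mESC cytoplasm 1 or mESC cytoplasm 3 (0.99, 0.97 and 0.85). Uhrf1 in mNPC, 0.88 ± 0.274, was called without mESC chromatin 3 (1.00). The Dnmt1 shift between mNPC and mCtx was called in the absence of any 1 of 13 libraries, with values of 1.02 to 1.13, and at 1.00 with a filter at 1 CPM or only the groups compared; its adjusted p was 0.00357 as reported.

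Without all 3 libraries of mESC replicate 1 the chromatin-minus-cytoplasm values in mESC were -1.63 for Dnmt3a, -1.05 for Dnmt3b, -1.27 for Uhrf1 and 1.70 for Tet1, and the shifts to mNPC were 3.12 for Dnmt3b, 1.40 for Dnmt3a, 1.02 for Dnmt1 and -1.66 for Tet1. Between cell types, Dnmt3a in cytoplasm was then at -1.44 in mNPC and at -1.12 in mCtx against mESC, both called, and Dnmt3b at -6.73 and -6.71. The calls lost without them were Tet2 in nucleoplasm between mNPC and mESC (-0.95) and Dnmt3a in nucleoplasm between mCtx and mNPC (0.87). Those gained in addition to Dnmt3a were Dnmt3b between mESC nucleoplasm and cytoplasm (-1.01), Tet2 between mNPC nucleoplasm and cytoplasm (1.03) and the Dnmt1 shift between mCtx and mNPC (1.02).

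The TPM readout, which covers annotated transcripts where the counts cover the whole gene span, gave the same call for Tet2 and other calls for several members. Exons make up 13.3% of the span in Dnmt3b and 20.9% in Tet2, and introns lie inside the counted region. On the log2(TPM + 1) scale, tested with limma, Tet2 was higher in chromatin by 3.23 ± 0.193 in mESC, 4.30 ± 0.193 in mNPC and 3.27 ± 0.193 in mCtx. Dnmt3l was lower in mESC chromatin at -1.32 ± 0.107, and Tet1 was higher by 2.11 ± 0.247. Dnmt3a at -0.77 ± 0.382, Dnmt3b at -0.07 ± 0.295 and Uhrf1 at 0.07 ± 0.192, called lower in counts, were not called in TPM. Without mESC cytoplasm 1 the Dnmt3a value was -1.28 and called. In all 3 of 8 members passed in mESC (51% of 24419 genes), 5 of 7 in mNPC (49.5%) and 5 of 7 in mCtx (44.5%). Called in TPM and not in counts were Dnmt1, Uhrf1 and Tet1 in mNPC, at 1.48 ± 0.165, 1.15 ± 0.192 and 1.08 ± 0.247, and Dnmt3a and Uhrf1 in mCtx, at 1.73 ± 0.382 and 1.24 ± 0.192. Uhrf1 in mNPC thus differed in sign from its count value of -0.36 ± 0.194, which was not called. The Tet1 value in mNPC, 1.08 ± 0.247, fell under the threshold without mNPC chromatin 2 or 3 or mNPC cytoplasm 3 (0.98, 0.87 and 0.95). The median of all genes was 0.80, 0.76 and 0.59 in TPM and 0.37, 0.12 and 0 in counts, so a TPM value near 0 was below the median gene.

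In cytoplasm the TPM calls followed the counts. All 8 members differed between mNPC and mESC (35.3% of genes) and between mCtx and mESC (43.1%), with Tet3 higher at 2.24 ± 0.176 and 2.42 ± 0.176 and the other 7 lower, and Dnmt3a now past the threshold in mCtx at -1.91 ± 0.382. Of the 7, Dnmt3l was at 0 TPM in both neural cytoplasms, so its call was fixed in advance. Between mCtx and mNPC 2 of 7 passed (26.2%), Uhrf1 at -1.75 ± 0.192 and Tet1 at -1.27 ± 0.247. Tet2 was near the threshold, at -1.05 ± 0.193 in mNPC and -1.14 ± 0.193 in mCtx against mESC, and its call was lost in mNPC without mESC cytoplasm 3 (-0.90) or mNPC cytoplasm 2 (-0.99) and in mCtx without mESC cytoplasm 3 (-0.99) or mCtx cytoplasm 2 (-0.98).

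Other genes of the pathway are given by lists, as counts in cytoplasm beside the background shares above. Of 15 partners and regulators of DNMT and TET proteins, 8 were lower and 1 higher in mNPC than in mESC, where 29.6% of all genes were lower and 29.8% higher. In mCtx against mESC 8 were lower and 1 higher, where 32.2% and 35.7% of all genes were. Dppa3 of this list was at 0 in every mNPC and mCtx library. It passed the filter on low counts through mESC alone, so a call of Dppa3 against mESC could only be lower. Trim28, a corepressor that keeps imprints methylated, fell from 2275 CPM in mESC to 325 in mNPC and 209.7 in mCtx (-2.81 ± 0.186 and -3.44 ± 0.191), and Hells, a chromatin remodeller needed for DNA methylation, changed by -4.75 and -5.52. Cxxc4, a CXXC protein that binds TET2, was the gene that rose, by 6.12 and 6.98. Its cytoplasmic level averaged 0.333 CPM in mESC, 24.6 in mNPC and 44.9 in mCtx, so these folds start from a level near the floor. Ogt, whose product glycosylates TET complexes, did not pass in cytoplasm (-0.81 ± 0.161 and -0.76 ± 0.16) and was higher in chromatin than in cytoplasm in all 3 cell types, at 2.35 ± 0.167, 4.27 ± 0.181 and 3.34 ± 0.174.

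Of the methyl-CpG readers, 5 of 7 were higher in mNPC than in mESC cytoplasm, where 29.8% of genes were, and 2 of 7 in mCtx, where 35.7% were, and none lower, with medians of 1.57 and 0.84 on the log2 scale against -0.01 and 0.06 over all genes. Mbd3, a subunit of the NuRD complex, did not pass at 0.02 ± 0.188 and -0.53 ± 0.188. Of 10 genes of the demethylation and repair list, 3 were higher and 4 lower in mNPC, near the 29.8% and 29.6% of all genes. In mCtx 1 was higher and 6 lower, against 35.7% and 32.2% (medians -0.17 in mNPC and -1.42 in mCtx). Tdg, the glycosylase that removes oxidised methylcytosine, rose by 1.47 ± 0.128 in mNPC and was at 0.68 ± 0.126 in mCtx, and Apex1, a repair endonuclease, was lower at -1.72 ± 0.186 and -1.69 ± 0.186. Of 12 methyl donor cycle genes, 9 were lower and 2 higher in mNPC and 9 lower and none higher in mCtx (medians -1.38 and -2.11), against the same shares of all genes. Among those lower were the S-adenosylmethionine synthetase gene Mat2a (-1.60 ± 0.155 and -1.77 ± 0.156) and the serine hydroxymethyltransferase gene Shmt2 (-1.39 ± 0.219 and -3.39 ± 0.237).

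Germline genes known in mouse as targets of promoter methylation were lower in both neural cytoplasms than in mESC, 9 of 9 tested, against 29.6% and 32.2% of all genes. The list summed to 104 to 148 CPM in mESC cytoplasm, and 5 of its 10 genes were at 0 in mNPC cytoplasm. A gene that passed the filter on low counts for its mESC level could hardly be called other than lower. The count of 9 was thus largely fixed in advance. Rhox5 averaged 65.7 CPM in mESC cytoplasm, 0.217 in mNPC and 0.612 in mCtx, and Ddx4 averaged 20.2, 0.662 and 1.00 CPM. Of the 9, Rhox5, Tdrd1 and Dazl were called higher in mCtx than in mNPC cytoplasm, where 24.4% of all genes were, so the count lay near that share. Rhox5 differed by 1.37 ± 0.405 on the log2 scale. These levels were low: the whole list summed to 3.06 to 3.96 CPM in mCtx and 0.969 to 1.46 CPM in mNPC. No methylation was measured in these libraries.

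In the chromatin-minus-cytoplasm comparison, 34.4% of all genes were higher and 21.6% lower in mESC, 27.5% and 21.3% in mNPC, and 26.2% and 24.4% in mCtx, and the higher share grew with library totals. Counting higher and lower calls, the partners gave 2 and 6 in mESC, 6 and 2 in mNPC and 6 and 1 in mCtx. The readers gave 1 and 2, 1 and 2, and 1 and 3. The repair list gave 3 and 5, 4 and 1, and 3 and 2. The methyl donor list gave 1 and 3, 2 and 2, and 3 and 1. The germline list of 10 genes, of which Asz1 was not tested, gave 0 and 3, 2 and 0, and 4 and 0. Its neural counts rest on low levels, with sums of 0.969 to 1.46 CPM in mNPC and 3.06 to 3.96 CPM in mCtx cytoplasm. In chromatin the sums were 11.1 to 13.1 CPM in mNPC, where Ddx4 alone averaged 10.7 CPM, and 11.5 to 13.5 CPM in mCtx.

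The genes whose 9 group means of log2 CPM followed each member most closely are given as a description, over 9 groups that share cell types and fractions. Dnmt3l was matched by Sall4, Dppa2 and Tcl1, each at a Pearson r of 1.000, and Tet1 by Zfp979 (0.999), Cxcl16 (0.995) and Got1l1 (0.992). Tet3 was matched by Ctnnd2 (0.999) and Cxxc4 (0.994), Tet2 by Zgrf1 (0.991), Zfp53 (0.990) and Prpf38b (0.990), and Dnmt3b by Unc13d (0.993), Arhgap27 (0.991) and Zfhx3 (0.989). Uhrf1 was matched by Bdh2 (0.994), Klc3 (0.992) and Bcar3 (0.988), Dnmt1 by Lars (0.975), Smg6 (0.971) and Upf1 (0.970), and Dnmt3a by Ssh1 (0.941), Bcar1 (0.924) and Sin3b (0.922). Among the members themselves r ran from 0.934 for Dnmt3b and Dnmt3l to -0.982 for Dnmt3l and Tet3.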

How the data were processed

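Polyadenylated RNA of 27 libraries was analysed from files deposited by the authors. The count table holds whole-number read counts per gene, per the file headers and values; its 9 chromatin columns, deposited with headers abbreviated Chr, were recorded under a unit named other and analysed as counts. The TPM table was deposited by the authors as TPM per gene. The submitters' processing notes name STAR, featureCounts, kallisto 0.43.0 and mm10; the strand setting and annotation release were not stated. In all 37332 genes the deposited length equals the gene span. Symbols came from GENCODE M21, which named 35449 of 37332 and 53274 of 53379 genes.

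Counts were fitted with edgeR 4.0.16 (R 4.3.3) in 1 quasi-likelihood model over 9 groups, with TMM scaling and filterByExpr, and TPM with limma 3.58.1 on log2(TPM + 1) for genes at 1 TPM or more in 3 libraries. Adjustment was Benjamini-Hochberg over all genes of a contrast, with 21 contrasts of counts and 6 of TPM. Scripts were tested on simulated data. Alternatives were RLE and total scaling, other filters, DESeq2 1.42.0, only the groups compared, replicate blocks, no minimum fold, a pseudocount of 0.1 and left-out libraries. Libraries held 10622897 to 24537526 counts. The labels call the replicates biological without naming separate cultures or animals, so the spread may be partly technical.

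The members and lists were chosen with earlier results of these data known. Named genes were the members, the 3 most similar genes of each, the 2 most abundant genes of each list and genes overlapping a member; Hells, Cxxc4, Dazl, Tdrd1 and the nuclear and cytoplasmic reference genes were added after their values were seen. Some genes that this rule names are not reported here. Of the lists, Asz1, Gjb6, Mog, P2ry12 and Foxa2 were not tested. Same-numbered mESC fractions deviated together (r 0.310 to 0.716 in 9 of 9 pairs). Those of mNPC (-0.117 to 0.253) and mCtx (0.027 to 0.137) passed 0.1 in 4 and 5 of 9, and cell types in 0 of 27. The numbers thus pair mESC fractions, while pairing in mNPC and mCtx is not settled. The main fit has no replicate block, so its SE and adjusted p values between fractions do not use this pairing. Dnmt3bos (48 counts) and Dnmt3aos (3) overlap Dnmt3b and Dnmt3a on the opposite strand, and Gm26479 (47) lies inside Tet1.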

Additional observations from a re-analysis of the deposited data

Results flagged for a closer look

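The chromatin-minus-cytoplasm difference of 10 gene and cell type pairs differed from that in mESC by a direct test in edgeR. In mNPC these were Dnmt1 at 1.16 (adjusted p = 0.000302), Dnmt3a at 1.41 (0.00453), Dnmt3b at 3.22 (3.08e-06), Tet1 at -1.45 (0.000166) and Tet2 at 1.13 (0.00142) on the log2 scale. In mCtx they were Dnmt1 at 2.11 (4.8e-08), Dnmt3a at 2.31 (1.58e-05), Dnmt3b at 3.63 (2.33e-07), Uhrf1 at 1.33 (0.00021) and Tet1 at -1.63 (2.99e-05). For Dnmt3b the direction within a cell type also differed in counts, at -1.02 in mESC and at 2.20 and 2.62 in mNPC and mCtx. The mESC count value ranged from -1.32 to -0.73 with libraries left out. Its call was lost with RLE scaling, DESeq2, library totals, replicate blocks and without some mESC libraries. In TPM the mESC value was -0.066 and not called, with a range of -0.42 to 0.22, so a direction in mESC was not established in that readout. Both sets share the mESC libraries.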

How the results depend on the processing

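Of 156 gene contrasts in counts 79 were called, and of 45 in TPM 31, the Dnmt3l calls against mESC included. Across all alternatives no called value changed sign; 131 values of 29 uncalled contrasts did, none with a size above 0.4153 as reported. The calls between nucleoplasm and cytoplasm rose from 7 to 12 with no minimum fold change, and the other counts of members called stayed within 1.5 times. Calls were lost 26 times in 12 contrasts by setting and 57 times in 15 by a left-out library. They were gained 46 times in 29 contrasts by setting and 61 times in 9 by a left-out library. Of the 46, 24 in counts and 5 in TPM came from dropping the minimum fold change, which leaves the values as they are. With the replicate block, Dnmt3b between mESC chromatin and cytoplasm was -0.99, Dnmt3b between mCtx and mNPC cytoplasm -0.0397 and Tet2 between their nucleoplasms 0.0076; Tet1 in cytoplasm between mCtx and mNPC was called at -1.003, and no other call changed.

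Scaling by library totals raised the median of all genes between chromatin and cytoplasm from 0.37, 0.12 and 0 to 0.88, 0.43 and 0.24 in mESC, mNPC and mCtx, and the share of calls that were higher from 61.4% to 76.5% in mESC and from 56.4% to 66.5% in mNPC. That share went from 75.5% to 90.8% between mESC nucleoplasm and cytoplasm, from 65.7% to 42.2% in mNPC (76.8% with RLE), from 48.0%, 51.1% and 52.0% to 66.7%, 73.2% and 73.5% between chromatin and nucleoplasm, and from 36.8% to 24.8% for the shifts from mESC to mNPC. Called values lost with totals, besides those in the text, were Dnmt1, Dnmt3a and Dnmt3l between mESC nucleoplasm and cytoplasm (-0.93, -0.88 and -0.85), Dnmt3l between mESC chromatin and nucleoplasm (-0.78), Dnmt3a between mNPC and mESC cytoplasm (-0.92) and the mNPC shifts of Dnmt1 and Tet2 (0.96 and 0.93). RLE scaling lost Dnmt3b between mESC chromatin and cytoplasm (-0.98), Tet1 between mESC nucleoplasm and cytoplasm (0.98) and Dnmt3l between mESC chromatin and nucleoplasm (-0.95), and DESeq2 lost these 3 too. Totals brought Dnmt3a between mCtx chromatin and cytoplasm (1.07) and Tet2 between mCtx and mNPC chromatin (-1.06) over the threshold, and a pseudocount of 0.1 Tet3 in mESC TPM (1.02).

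Signs changed as follows, the cause not tested. Between chromatin and nucleoplasm, Dnmt3b in mESC was 0.078 with DESeq2 and with RLE, 0.0078 at 1 CPM, 0.25 with totals and 0.073 unfiltered; totals gave Dnmt1 0.20 in mCtx and 0.495 in mNPC, Tet3 0.10 and 0.54, and Uhrf1 0.19 in mCtx; Dnmt3a in mNPC was -0.15 at 1 CPM, and Uhrf1 in mESC -0.0305 with only the groups compared. Between chromatin and cytoplasm, totals gave Dnmt3a 0.23 in mNPC and Tet3 0.12 in mCtx and 0.047 in mNPC, and Tet1 in mCtx was -0.056 at 1 CPM, -0.012 unfiltered and -0.0041 with only the groups compared. Dnmt3b between mNPC nucleoplasm and cytoplasm was 0.065 with DESeq2, 0.073 with RLE, 0.082 at 1 CPM and 0.052 with only the groups compared. Between mCtx and mNPC, Dnmt3b in cytoplasm was -0.12 with totals and -0.029 with only the groups compared, and Tet2 in nucleoplasm 0.052 with totals.

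With libraries left out, Dnmt3a ranged from -0.041 to 0.42 in chromatin and -0.33 to 0.18 in nucleoplasm between mNPC and mESC, and in mNPC from -0.22 to 0.19 (chromatin minus nucleoplasm) and -0.44 to 0.059 (nucleoplasm minus cytoplasm). Dnmt3b ranged from -0.12 to 0.10 (TPM -0.0904 to 0.19) between mCtx and mNPC cytoplasm, -0.31 to 0.24 between mESC chromatin and nucleoplasm, -0.42 to 0.22 in TPM between mESC chromatin and cytoplasm, and -0.17 to 0.27 between mNPC nucleoplasm and cytoplasm. Tet1 ranged from -0.31 to 0.025 for the shift between mNPC and mCtx, in mCtx from -0.21 to 0.14 (chromatin minus cytoplasm), -0.019 to 0.095 (chromatin minus nucleoplasm) and -0.23 to 0.13 (nucleoplasm minus cytoplasm), and in mNPC from -0.0225 to 0.31, -0.027 to 0.62 and -0.65 to 0.071 in that order. Tet2 between mCtx and mNPC ranged from -0.29 to 0.23 in nucleoplasm and -0.19 to 0.0725 in cytoplasmic TPM. Tet3 in mNPC ranged from -0.39 to 0.0405 between chromatin and nucleoplasm and -0.47 to 0.066 between nucleoplasm and cytoplasm. Uhrf1 in mESC ranged from -0.14 to 0.18 between chromatin and nucleoplasm and -0.12 to 0.23 in TPM between chromatin and cytoplasm. Depth limits Dnmt3l, with 0 counts in every mNPC and mCtx library, and Dnmt3b, with 113 counts over the 3 mNPC nucleoplasm libraries.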
